A study of Mus musculus with 8 samples.

Results

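The proteasome genes described here are the 46 rows, of 11756 listed, whose symbol starts with Psma, Psmb, Psmc, Psmd, Psme, Psmf or Psmg followed by a digit, without the inducible subunits Psmb8, Psmb9 and Psmb10. The symbol pattern also takes in Psmc3ip, a factor of meiotic recombination, and Psme3ip1, which encodes a protein that binds an activator, and these are given apart. The other 44 comprise 15 genes of the core particle (8 of the alpha ring and 7 of the beta ring), 20 of the regulatory cap (6 ATPases and 14 non-ATPases), 4 activators, and 5 for an inhibitor and assembly factors. Of these 44 genes, 40 passed the filter on low values and were tested. The members that did not pass were Psma8, Psmd13, Psme4 and Psmg3.

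The proteasome is the barrel-shaped protease that degrades most short-lived and damaged proteins of a cell. Rings of alpha subunits gate the barrel, and inside the beta rings Psmb5, Psmb6 and Psmb7 carry the catalytic sites. The cap recognises ubiquitin chains, and its ATPases unfold the substrate and thread it into the core. The activators Psme1 and Psme2 form a ring that opens the barrel without ubiquitin. In antigen-presenting cells such as dendritic cells, the proteasome makes most peptides displayed on MHC class I, and under interferon newly built proteasomes carry Psmb8, Psmb9 and Psmb10 in place of the catalytic subunits.

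RNA was measured in 8 libraries of cells carrying CD11c, an integrin of dendritic cells and some macrophages, which were sorted by flow cytometry from the femurs and tibias of C57BL/6 mice. In 4 libraries the cells had been given acLDL (acetylated low density lipoprotein), which cells ingest through scavenger receptors, and 4 libraries were controls, so that the comparison asks what lipid loading changes in these cells. In the acLDL group the exposure began on culture day 6 and lasted 24 h. The same strain, sort and culture protocol are given for all 8 libraries. Whether each library is an animal or a culture of its own is not in the labels. The p-values therefore reflect the spread between libraries, which may be technical.

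The deposited values are a normalized signal per gene, with library totals between 3917426 and 4385051, and 10091 of the 11756 listed genes were tested. Libraries of the same group stood apart from each other. The mean log2 level of 483 genes outside the proteasome with a longest coding transcript under 1000 nt, given as deviation from each gene's mean and called the short-transcript index below, was 1.11, -1.36, -2.24 and -0.30 in acLDL libraries 1 to 4, against 0.054, 0.94, 1.07 and 0.72 in control libraries 1 to 4. Thus acLDL library 1 was above every control, and the other acLDL libraries were below every control. Between 2.31% and 16.2% of tested genes were listed at 0 per library with acLDL, against 1.52% to 5.88% in controls, with acLDL libraries 2 and 3 at the high end. Over all tested genes, the deviations of control library 1 from its group mean correlated positively with those of acLDL libraries 2 and 3 (Pearson's r across genes of 0.42 and 0.37) and negatively with those of acLDL library 1 (-0.55). The deviations of acLDL library 1 correlated positively with those of control libraries 2, 3 and 4 (0.29, 0.37 and 0.13). Since deviations cancel within a group, these values are tied to the -0.55 and are no separate observation. The labels were kept as given. Itgax, the gene of CD11c, was at 189 and 42.7 in acLDL libraries 1 and 4 and at or below 10 in acLDL libraries 2 and 3, against 81.5, 183, 195 and 172 in controls. In bulk RNA, fewer cells of a type and less RNA per cell cannot be told apart.

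Core particle genes had mostly lower mean log2 values with acLDL, while the median of the cap genes was close to that of all genes. Of 14 core genes tested, 10 means were lower and 4 higher, and the median log2 fold change was -1.75, taken as log2(value + 5) with acLDL minus control. Of 19 cap genes, 12 were lower and 7 higher, with a median of -0.15 and a range from -2.16 to 0.79. Without the assembly chaperones Psmd5, Psmd9 and Psmd10, which are counted in the cap here, its median was -0.41. The cap subunits Adrm1 and Sem1 fall outside the symbol pattern and are counted below with the proteasome-associated proteins. Their log2 fold changes were -1.60 and -2.22, so the cap median depends on which genes are counted. A log2 fold change under -1 was found for 57.1% of the core and 31.6% of the cap genes, against 22.1% of all genes. The 3 activators had a median of 0.085 with 1 lower, and the 4 genes for the inhibitor and assembly factors a median of -1.30 with 3 lower. Over all 10091 genes tested the median was -0.13, and 55.7% were lower. Over every listed member, tested or not, the medians were -1.29 for the core, -0.26 for the cap, -0.073 for the activators and -0.95 for the inhibitor and assembly factors.

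**Figure D1:**
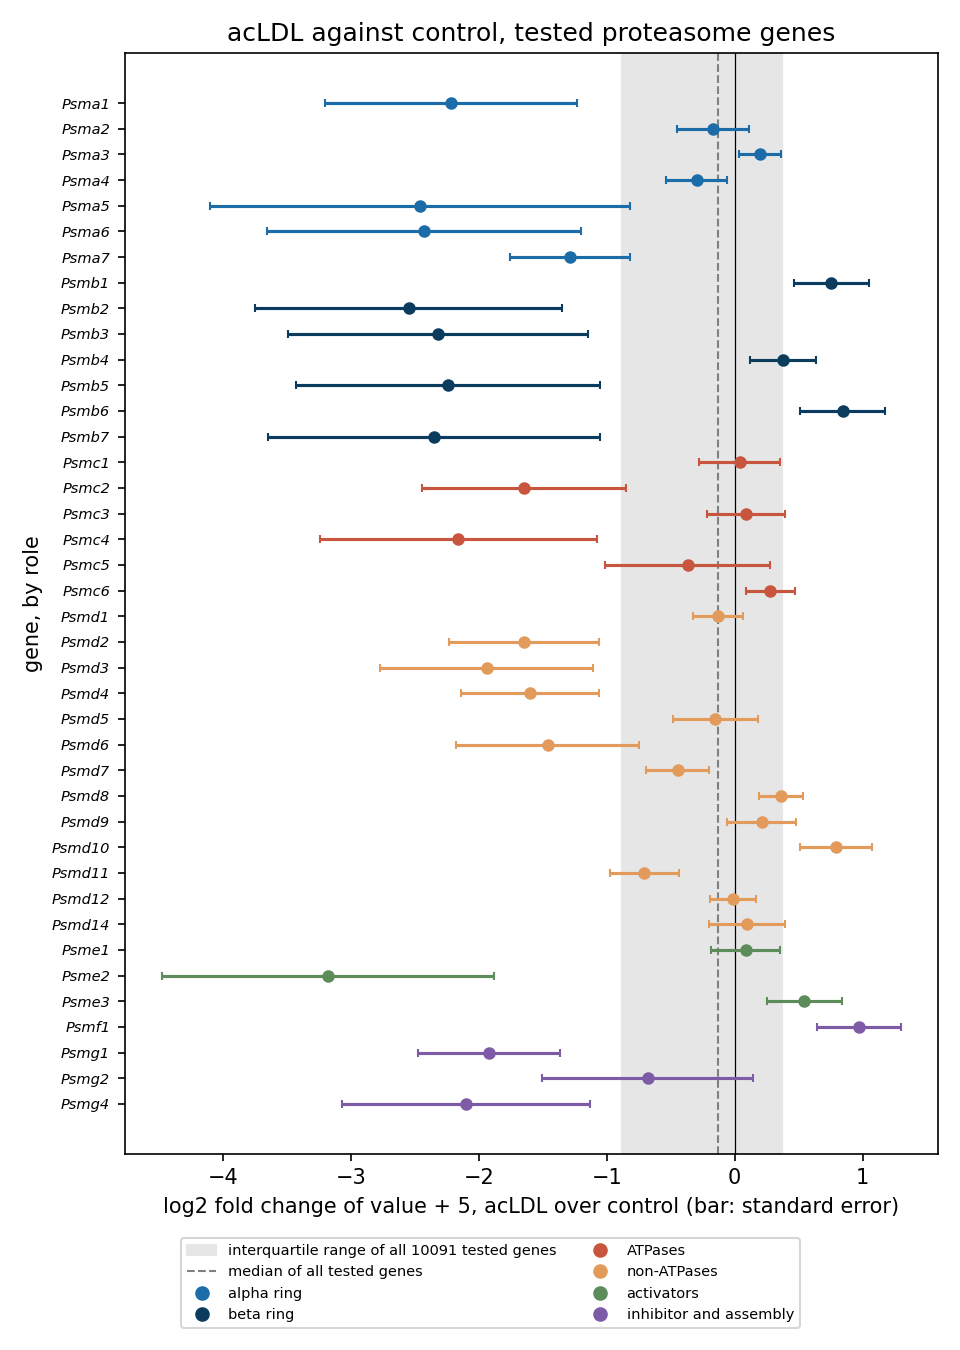
Log2 fold change of value + 5, acLDL over control, for the 40 tested proteasome genes by role, with the standard error from limma as bars, the dashed line at the median of all 10091 tested genes and the grey band over their interquartile range. Core genes spread from -2.55 to 0.84 and cap genes from -2.16 to 0.79, and Psme2 is the lowest gene at -3.18.

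No proteasome gene passed limma's adjusted p of 0.05, and neither did any of the 10091 genes (0.0% called), where the lowest adjusted p was 0.298. At an unadjusted limma p under 0.05 there were 11 of 40 members (27.5%), against 16.4% of all genes tested. The 4 with a higher mean were Psmb1, Psmb6, Psmd10 and Psmf1, against 7.42% of all genes, and the 7 with a lower mean were Psma7, Psmd2, Psmd3, Psmd4, Psmd11, Psme2 and Psmg1, against 8.93%. A log2 fold change under -1 was found for 17 members (42.5%), against 22.1% of all genes. These were 8 core, 6 cap, 1 activator and 2 assembly genes.

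The absence of calls rested on acLDL library 1, and leaving out any other library in turn gave none. This library stands out by the same values that are tested. Calls and adjusted p-values without it, here and below, are therefore no separate support for a difference. Without acLDL library 1, limma called 20 of the 40 members, against 21.7% of all genes. Of these 4 were higher, against 7.28% of all genes, and 16 lower, against 14.4%. That fit keeps control library 1, whose deviations correlated with those of acLDL libraries 2 and 3. The members called were 8 core genes, 8 cap genes, Psme2, Psmf1, Psmg1 and Psmg4. With limma array weights, which give libraries far from their group less weight, 15 members were called, against 19.4% of all genes, 4 of them higher and 11 lower, against 6.49% and 12.9%. The weights come from the same values, and the lowest, 0.34, fell on acLDL library 1. The weighted calls are therefore no separate support either. In acLDL library 1, 30 of 40 members were within the range of the controls, against 68.2% of all genes. Libraries 2, 3 and 4 with acLDL were all below every control for 13 members, against 18.9% of all genes, and all above every control for 8, against 14.0%. Without acLDL library 3 the log2 fold change shrank by over 1.5 times for several named members, to -1.29 for Psma6, -0.97 for Psmb5, -1.51 for Psmb7, -1.24 for Psmd3, -1.96 for Psme2 and -1.24 for Psmg4. The 2 groups did not overlap at all for 3 members, Psmd4 and Psmg1 lower and Psmc6 higher, against 5.64% of all genes.

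**Figure D2:**
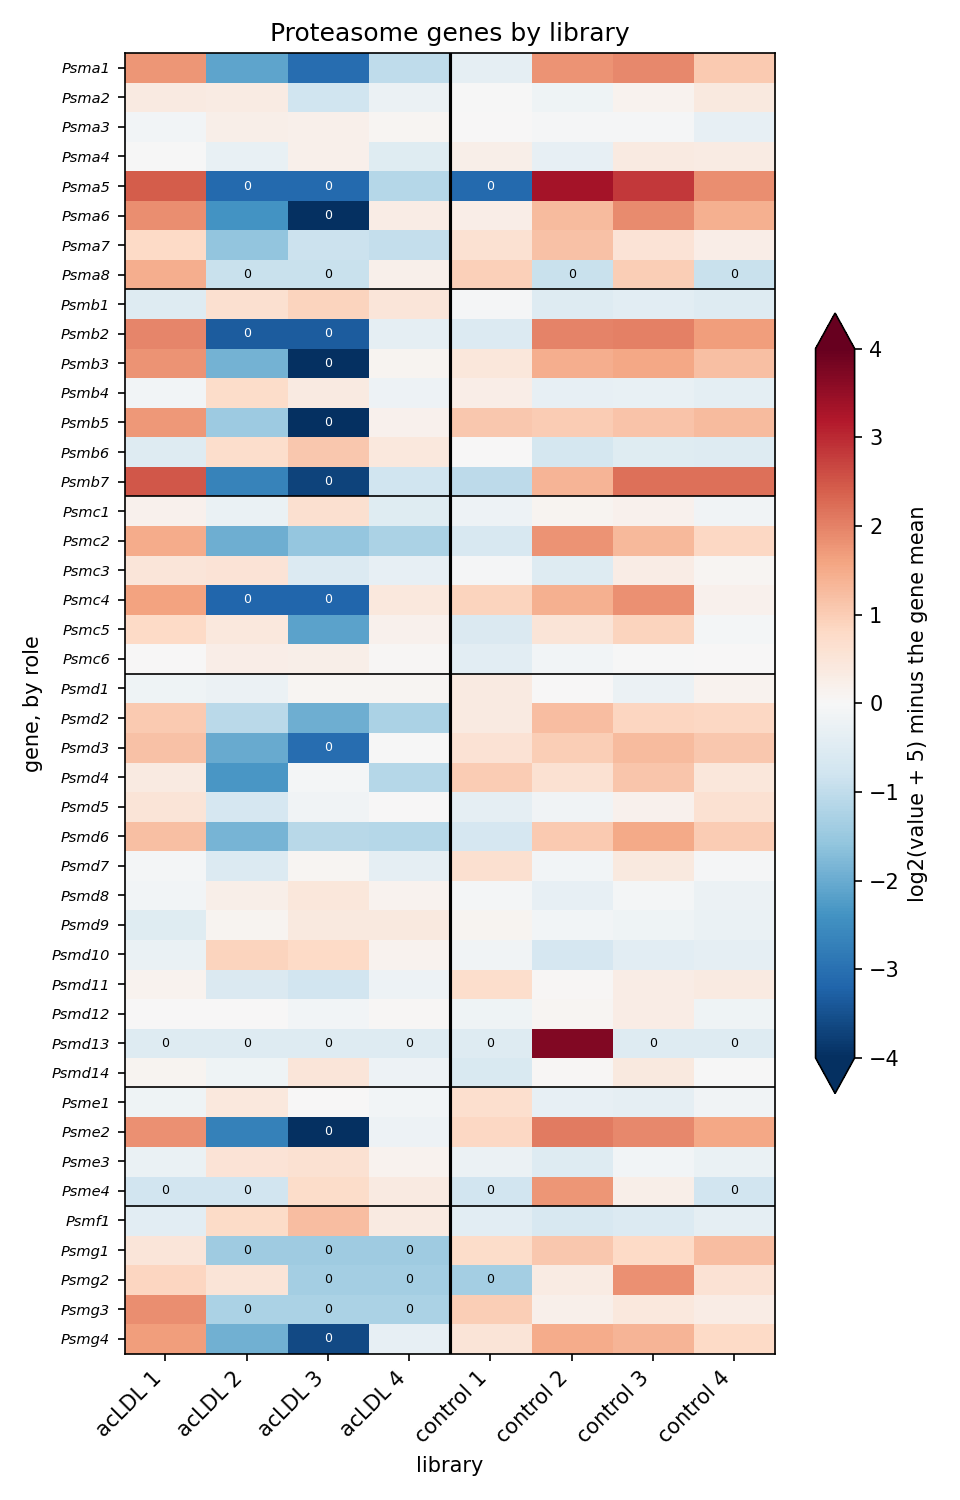
Log2(value + 5) minus the gene's mean over the 8 libraries, for the 44 proteasome genes by role (rows) in each library (columns, acLDL left of control), with 0 printed where a gene is listed at 0. In acLDL library 3, 12 of the 40 tested genes are listed at 0, and acLDL library 1 is within the control range for 30 of the 40.

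In the alpha ring, which gates the barrel and docks the caps, 6 of the 7 tested genes had a lower mean with acLDL and none passed the adjusted threshold. Library values are given below in the order of library numbers 1 to 4. Psma7 (chromosome 2, 180036374 to 180042433, minus strand, GRCm38 as all coordinates) was at 1835, 346, 577 and 536 with acLDL, against 1600.2, 2357, 1543 and 1248 in controls. Libraries 2, 3 and 4 with acLDL were below every control and library 1 was inside the control range. Its log2 fold change was -1.29 (SE 0.469), with limma's unadjusted p = 0.0222 and adjusted p = 0.298, and without acLDL library 1 adjusted p = 0.0224. Psma5 (chromosome 3, 108256926 to 108279974, plus strand) was at 225, 0, 0 and 14.7 with acLDL, against 0, 429, 298 and 151 in controls, so a control library was also listed at 0. Psma6 (chromosome 12, 55384222 to 55418454, plus strand) was at 445, 18.9, 0 and 146 with acLDL, against 145, 293, 456 and 329 in controls, and its groups overlapped through acLDL library 1 and control library 1. Their log2 fold changes were -2.46 (SE 1.64) and -2.43 (SE 1.23), with adjusted p = 0.383 and 0.305 in limma. Without acLDL library 1, Psma6 was called (adjusted p = 0.0425) and Psma5 was not (0.0991).

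The alpha genes were not uniform. Psma3 (chromosome 12, 70974621 to 70996347, plus strand) averaged 1879.7 ± 190.2 after acLDL, against 1639.6 ± 163 in control libraries (SD, n = 4 each), a log2 fold change of 0.20 (SE 0.162), and was the single alpha gene with a higher mean. Psma2 (chromosome 13, 14613240 to 14674236, plus strand) averaged 3216 ± 1114 after acLDL, against 3469 ± 589 in control libraries (SD, n = 4 each), a log2 fold change of -0.17 (SE 0.280). Neither passed the threshold (limma's adjusted p = 0.465 and 0.729). The 2 alpha genes left ran from -2.22 for Psma1, called without acLDL library 1 (adjusted p = 0.0251), to -0.30 for Psma4. Psma8, which in mice serves the proteasome of the testis, was not tested, with values of up to 20.5 after acLDL, against up to 13.2 in controls.

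The beta ring split into sets with opposite directions. Psmb2, Psmb3, Psmb5 and Psmb7 had a lower mean with acLDL, with log2 fold changes between -2.55 and -2.24. Psmb1, Psmb4 and Psmb6 had a higher mean, between 0.38 and 0.84. The sets also differed in signal level, with gene means over the 8 libraries of 100.6 to 257.4 in the lower set, against 1749.8 to 7199.3. Each gene of the lower set was listed at 0 in acLDL library 3. Whether the split reflects the subunit or the signal level was not tested. No beta gene passed the adjusted threshold, and without acLDL library 1 limma called Psmb1 and Psmb6 higher and Psmb2, Psmb3 and Psmb7 lower. With the short-transcript index as a covariate the split was not seen, and the 7 genes lay between -0.028 and 0.39.

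The catalytic subunits were on both sides. Psmb5, which carries the chymotrypsin-like site (chromosome 14, 54614119 to 54618022, minus strand), was at 508, 52.1, 0 and 169 with acLDL, against 321, 308, 337 and 363 in controls. Controls lay close together, and the acLDL libraries lay on both sides of them, with library 1 above every control and the other libraries below. Its log2 fold change was -2.24 (SE 1.19), with limma's adjusted p = 0.312, and 0.0534 without acLDL library 1. Psmb7, with the trypsin-like site (chromosome 2, 38588036 to 38644087, minus strand), was at 353, 5.05, 0 and 32.2 with acLDL, against 26.3, 161, 293 and 290.2 in controls. Here too acLDL library 1 was above every control, and control library 1 was below acLDL library 4. The log2 fold change was -2.35 (SE 1.30), with limma's adjusted p = 0.322, and 0.035 without acLDL library 1.

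Psmb6, which carries the caspase-like site (chromosome 11, 70525367 to 70527858, plus strand), was at 2859, 6712, 8722 and 5523 with acLDL, against 4129, 2539, 2939.8 and 2884 in controls. The acLDL libraries other than library 1 were above every control. The averages were 5954 ± 2449.5 after acLDL, against 3123 ± 694 in control libraries (SD, n = 4 each), a ratio of 1.91, and the log2 fold change was 0.84 (SE 0.333) with limma's unadjusted p = 0.0324 and adjusted p = 0.298. Psmb1, a subunit of the beta ring without a catalytic site (chromosome 17, 15475021 to 15499751, minus strand), had its acLDL libraries in the same order, at 4689.7, 10471, 12360.0 and 9344 with acLDL, against 6484, 4681, 4936 and 4628 in controls. Its averages were 9216 ± 3264 after acLDL, against 5182 ± 878 in control libraries (SD, n = 4 each), with a log2 fold change of 0.76 (SE 0.297), unadjusted p = 0.0315 and adjusted p = 0.298 in limma. Without acLDL library 1 the adjusted p was 0.0238 for Psmb6 and 0.0228 for Psmb1. Psmb2 (chromosome 4, 126677630 to 126709714, plus strand), another subunit without a catalytic site, was at 191, 0, 0 and 34.6 with acLDL, against 29.5, 195, 199 and 155 in controls, for a log2 fold change of -2.55 (SE 1.20) with adjusted p = 0.299, and 0.032 without acLDL library 1.

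**Figure D3:**
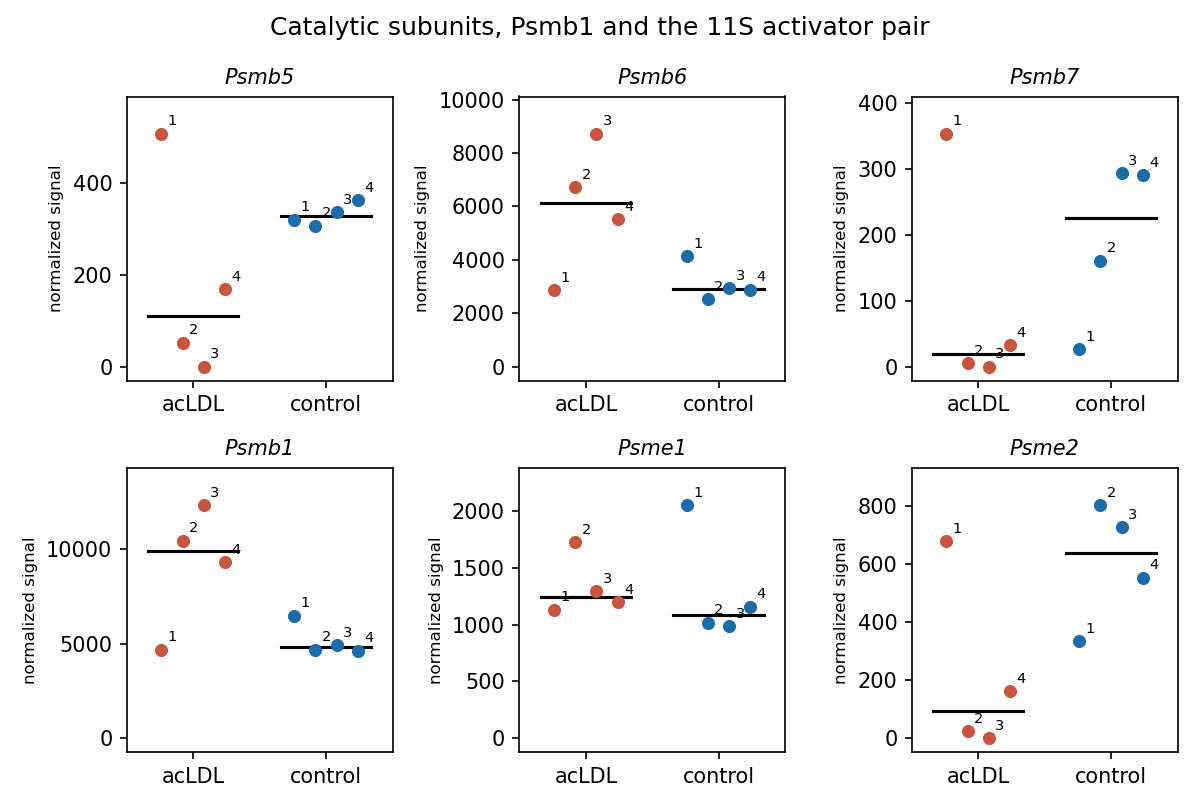
Normalized signal per library (points, with library numbers) for the catalytic subunits Psmb5, Psmb6 and Psmb7, for Psmb1 and for the activators Psme1 and Psme2, acLDL left of control, with a bar at the median of each group. Libraries 2, 3 and 4 with acLDL are above every control for Psmb6 and Psmb1 and below every control for Psmb5 and Psme2, and acLDL library 1 goes the other way for Psmb5.

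Promoters of 2 gene pairs that share a ring but differed in log2 fold change are printed here. Each is a window of 300 bases around the RefSeq start on GRCm38.p6, read along the gene's strand. They are Psmb5 (chr14:54617946-54618245, minus strand) and Psmb6 (chr11:70525107-70525406, plus strand) from the catalytic ring, and Psme1 (chr14:55578244-55578543, plus strand) and Psme2 (chr14:55591052-55591351, minus strand) from the activator ring. The log2 fold change of Psme1 was close to 0 (0.085, SE 0.268). For Psme2 the table holds 2 windows, and the one nearest the GENCODE start was taken. Capitals mark a match on either strand to TGACNNNGC, the antioxidant response element bound by Nfe2l1 and Nfe2l2 (Psmb5 and Psmb6), or to the interferon-stimulated response element, GAAA and GAAA with any 2 bases between (Psme1).
Psmb5: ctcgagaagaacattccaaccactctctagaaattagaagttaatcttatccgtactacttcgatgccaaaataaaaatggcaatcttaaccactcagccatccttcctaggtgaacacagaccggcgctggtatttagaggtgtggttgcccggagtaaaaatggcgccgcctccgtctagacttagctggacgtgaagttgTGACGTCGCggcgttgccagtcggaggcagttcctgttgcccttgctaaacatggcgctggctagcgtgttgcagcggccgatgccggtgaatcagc
Psmb6: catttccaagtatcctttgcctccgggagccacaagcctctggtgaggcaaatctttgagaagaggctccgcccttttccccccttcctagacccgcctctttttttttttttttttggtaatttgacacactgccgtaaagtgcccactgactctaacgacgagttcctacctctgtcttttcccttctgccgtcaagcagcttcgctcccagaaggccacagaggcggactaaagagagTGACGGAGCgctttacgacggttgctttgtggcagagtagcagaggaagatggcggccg
Psme1: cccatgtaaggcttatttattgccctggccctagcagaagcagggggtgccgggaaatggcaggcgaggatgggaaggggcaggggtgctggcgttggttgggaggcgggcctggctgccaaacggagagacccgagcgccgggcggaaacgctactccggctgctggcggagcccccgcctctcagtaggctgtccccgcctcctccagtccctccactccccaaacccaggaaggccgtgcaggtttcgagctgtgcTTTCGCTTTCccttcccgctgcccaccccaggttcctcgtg
Psme2: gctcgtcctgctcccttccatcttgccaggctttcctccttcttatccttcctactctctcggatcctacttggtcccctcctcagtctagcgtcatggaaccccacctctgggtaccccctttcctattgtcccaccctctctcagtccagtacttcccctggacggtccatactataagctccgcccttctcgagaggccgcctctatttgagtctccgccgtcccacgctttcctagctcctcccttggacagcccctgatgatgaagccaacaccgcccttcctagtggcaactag

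The printed promoters of Psmb5 and Psmb6 each hold 1 match to the antioxidant response element. For Psmb7, the other catalytic subunit, no RefSeq promoter was found. Psmb5 had a lower and Psmb6 a higher mean with acLDL, and a part of the element in this was not tested. RefSeq promoters were found for 36 of the 44 genes, and TGACNNNGC was present in 6 of them (16.7%), against 12.5% of 27025 promoters of the same length. The 6 were Psmb5, Psmb6, Psmc6, Psmd9, Psmd12 and Psme4. Of 14 members with a promoter and a log2 fold change under -1, 1 held it, against 4 of the 19 other tested members. The interferon element was present in 5 promoters (13.9%), those of Psmb3, Psmd4, Psmd9, Psme1 and Psmg4, against 3.49% of all. The letters CCAAT, searched on both strands, were in 12 (33.3%), against 37.9% of all. TTCNNNGAA, the GAS element of STAT factors, was in 2 (5.56%), against 8.35% of all. The motifs were searched independently, and matches may overlap. A match describes the letters in this window and is no evidence of a bound site.

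Among the 6 ATPases, which form the ring that unfolds substrates, 3 means were higher and 3 lower, and the median log2 fold change was -0.16. Psmc6 (chromosome 14, 45329788 to 45349705, plus strand) was at 256, 304, 297 and 258 with acLDL, against 185, 232, 249 and 253 in controls. All acLDL libraries were above all controls, 1 of 40 members with this pattern, against 3.44% of all genes. Its averages of 279 ± 25.3 after acLDL, against 229.7 ± 31.3 in control libraries (SD, n = 4 each) give a log2 fold change of 0.28 (SE 0.191) and, in limma, an adjusted p of 0.39. Psmc4 (chromosome 7, 28041707 to 28050101, minus strand) was at 132, 0, 0 and 55.99 with acLDL, against 79.1, 116, 156 and 45.4 in controls, and Psmc2 (chromosome 5, 21785283 to 21803787, plus strand) was at 302, 22.99, 32.6 and 40.04 with acLDL, against 65.4, 373, 263 and 190.3 in controls. For both genes acLDL library 1 lay inside the control range. Their log2 fold changes were -2.16 (SE 1.08) and -1.65 (SE 0.797), with limma's adjusted p = 0.304 and 0.301. Without acLDL library 1 both were called lower (adjusted p = 0.0445 and 0.027). Psmc3 averaged 485 ± 179 after acLDL, against 439.5 ± 97.9 in control libraries (SD, n = 4 each), a log2 fold change of 0.092, and turned to -0.14 with array weights. Psmc1 and Psmc5 had log2 fold changes of 0.038 and -0.37.

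The non-ATPase genes of the cap held all of its nominal differences, 4 of 13 lower and 1 higher at an unadjusted limma p under 0.05. This is a share of 38.5%, against 16.4% of all genes. Psmd4, which encodes a receptor for ubiquitin chains (chromosome 3, 95032694 to 95042614, minus strand), was at 138, 17.5, 102 and 45.8 with acLDL, against 223, 166, 239 and 149 in controls. Every acLDL library was below every control, as for 2 of the 40 members and 2.2% of all genes. The averages were 75.7 ± 54.2 after acLDL, against 194 ± 43.2 in control libraries (SD, n = 4 each), with a log2 fold change of -1.60 (SE 0.542), unadjusted p = 0.0164 and adjusted p = 0.298 in limma. With the short-transcript index as a covariate the log2 fold change was -1.25. Psmd2 (chromosome 16, 20651652 to 20663414, plus strand), a large scaffold of the cap that docks shuttle proteins, was at 194, 40.6, 19.96 and 35.1 with acLDL, against 121, 221, 173 and 167 in controls. Psmd3 (chromosome 11, 98682554 to 98695979, plus strand), of the lid, was at 88.03, 5.24, 0 and 35.9 with acLDL, against 55.9, 75.99, 92.8 and 81.4 in controls. In both genes acLDL libraries 2, 3 and 4 lay below every control and library 1 inside their range. The log2 fold changes were -1.65 (SE 0.586) and -1.94 (SE 0.834), with unadjusted p = 0.0206 and 0.0458 in limma and adjusted p = 0.298 for each.

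Psmd11, a lid subunit (chromosome 11, 80428615 to 80473248, plus strand), was at 159.9, 95.5, 82.3 and 125 with acLDL, against 239.7, 151, 178 and 186 in controls, so acLDL library 1 alone overlapped the controls. It averaged 116 ± 34.5 after acLDL, against 189 ± 37.1 in control libraries (SD, n = 4 each), a log2 fold change of -0.71 (SE 0.270) with unadjusted p = 0.028 in limma. Psmd10, an assembly chaperone of the cap also called gankyrin (chromosome X, 140948429 to 140956728, minus strand), went the other way, at 537, 1185, 1128 and 711 with acLDL, against 584, 400.3, 481 and 497 in controls. In acLDL libraries 2, 3 and 4 it was above every control. Its averages were 890.2 ± 316 after acLDL, against 491 ± 75.5 in control libraries (SD, n = 4 each), a ratio of 1.81 and a log2 fold change of 0.79 (SE 0.282) with unadjusted p = 0.0205. For Psmd10 as for Psmd11, limma's adjusted p was 0.298. Without acLDL library 1, limma called Psmd2, Psmd3, Psmd4, Psmd6 and Psmd11 lower and Psmd10 higher, with adjusted p between 0.0224 and 0.0444.

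Psmd8, another lid subunit (chromosome 7, 29174188 to 29180701, minus strand), averaged 2574 ± 417 after acLDL, against 1985 ± 164 in control libraries (SD, n = 4 each), a log2 fold change of 0.36 (SE 0.172) with adjusted p = 0.299 in limma. The 7 remaining tested genes ran from -1.46 for Psmd6 to 0.21 for Psmd9, another assembly chaperone. Psmd14, the deubiquitinase that cuts chains from substrates, was at 92.8, 76.5, 122 and 73.5 with acLDL, against 54.5, 89.2, 115 and 85.7 in controls, with overlap and a log2 fold change of 0.097. Psmd12, a lid subunit, was at 629, 623, 578 and 641 with acLDL, against 546, 662, 765 and 545 in controls (-0.013). Psmd13 was listed at 0 in every library but control library 2, where it was at 89.2, and was not tested.

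The activator pair, which is known to be induced by interferon gamma, also differed between its members. Psme2 (chromosome 14, 55587441 to 55591113, minus strand) was at 677, 24.2, 0 and 160.1 with acLDL, against 332, 802, 725 and 552 in controls. Libraries 2, 3 and 4 with acLDL were below every control, and library 1 was inside the control range. The log2 fold change of -3.18 (SE 1.30) was the lowest of all 40 tested members, with unadjusted p = 0.0371 and adjusted p = 0.298 in limma, and 0.0286 without acLDL library 1. Psme1 (chromosome 14, 55578123 to 55581529, plus strand), its partner in the ring, was at 1132, 1726, 1297 and 1199.8 with acLDL, against 2056, 1018, 988 and 1159 in controls. The groups overlapped, and control library 1 held the highest value. It averaged 1338 ± 267 after acLDL, against 1305 ± 506 in control libraries (SD, n = 4 each), with a log2 fold change of 0.085 (SE 0.268) and adjusted p = 0.86. With the covariate Psme1 turned to -0.19 and Psme2 moved to -0.36. Psme3, the activator of the nucleus (chromosome 11, 101316213 to 101323537, plus strand), averaged 72.2 ± 20.4 after acLDL, against 46.7 ± 5.99 in control libraries (SD, n = 4 each), a log2 fold change of 0.54 (SE 0.295) with adjusted p = 0.317 in limma. Psme4, an activator known for its part in histone degradation in the testis, was listed at 0 in 2 libraries of each group and was not tested.

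The inhibitor and the assembly chaperones differed in direction. Psmf1, which encodes an inhibitor of the core particle (chromosome 2, 151715812 to 151744186, minus strand), was at 532, 1214, 1697 and 914 with acLDL, against 535, 460.2, 490.4 and 554 in controls. Control values lay close together, below acLDL libraries 2, 3 and 4, and acLDL library 1 was within their range. The averages were 1089 ± 492 after acLDL, against 509.8 ± 42.4 in control libraries (SD, n = 4 each), a ratio of 2.14. Its log2 fold change of 0.97 (SE 0.327) was the highest of all 40 tested members, with unadjusted p = 0.0158 and adjusted p = 0.298 in limma, and 0.0231 without acLDL library 1. Psmg1 (chromosome 16, 95979933 to 95990960, minus strand), a chaperone of the alpha ring, was at 13.7, 0, 0 and 0 with acLDL, against 17.4, 23.3, 18.5 and 26.8 in controls. All acLDL libraries were below all controls, and 3 were listed at 0, near the floor of the table, where no value lies between 0 and 5.001. Its log2 fold change was -1.92 (SE 0.552) with the smallest p of the members, unadjusted p = 0.00711 and adjusted p = 0.298 in limma. Psmg1 passed the filter on low values through the controls and acLDL library 1. The other acLDL libraries were at 0, so its p and its lack of overlap rest partly on the floor. Psmg4 (chromosome 13, 34162964 to 34178173, plus strand), also of this family, was at 190.5, 11.4, 0 and 44.2 with acLDL, against 83.2, 169, 155 and 103 in controls, for a log2 fold change of -2.10 (SE 0.972) and an adjusted p of 0.298. Without acLDL library 1, limma called both lower (adjusted p = 0.0238 and 0.0294). Psmg2 had a log2 fold change of -0.68 with overlap. Psmg3 was at 38.01 in acLDL library 1 and listed at 0 in acLDL libraries 2, 3 and 4, against values between 8.78 and 18.6 in controls.

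The difference between core and cap varied from library to library within the acLDL group. The core median minus the cap median, in log2 deviation from each gene's mean, was 1.09, -1.23, -1.86 and -0.21 in acLDL libraries 1 to 4, against 0.088, 1.03, 0.55 and 0.66 in control libraries 1 to 4. Thus acLDL library 1 had the highest and acLDL library 3 the lowest value of all 8, in the same places as in the short-transcript index. Over the fit, the core median minus the cap median was -1.60. It was -0.13 without acLDL libraries 2 and 3, and 0.21 with the short-transcript index as a covariate. With this covariate the medians were 0.16 for the core, -0.055 for the cap, -0.19 for the activators and 0.11 for the inhibitor and assembly factors, with 21 of 40 members higher and 19 lower. Core genes then spanned -0.57 to 0.53 and cap genes -1.25 to 0.72, and no gene was called. Since acLDL libraries 2, 3 and 4 were below every control in this index, the index and the treatment cannot be told apart in these libraries.

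Length differed between the roles. The longest coding transcript had a median of 1162 nt over the tested core genes and 1819 nt over the cap genes, against 3179 nt over all tested genes with an annotated length. Of 6 members under 1000 nt, 5 had a lower mean, with a median log2 fold change of -2.28, against -1.50 for all 489 tested genes of that length. The 14 members of 1000 to 1500 nt had a median of -1.38, against -0.90 for all genes of that class. From 1500 to 2000 nt the 9 members had a median of 0.038, against -0.49, and the 11 members of 2000 nt or more had -0.13, against -0.036. Within 1000 to 1500 nt the 7 core genes had a median of -2.22 and the 4 cap genes -0.91. No cap gene was shorter than 1000 nt, and 3 core genes were longer than 1500 nt.

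**Figure D4:**
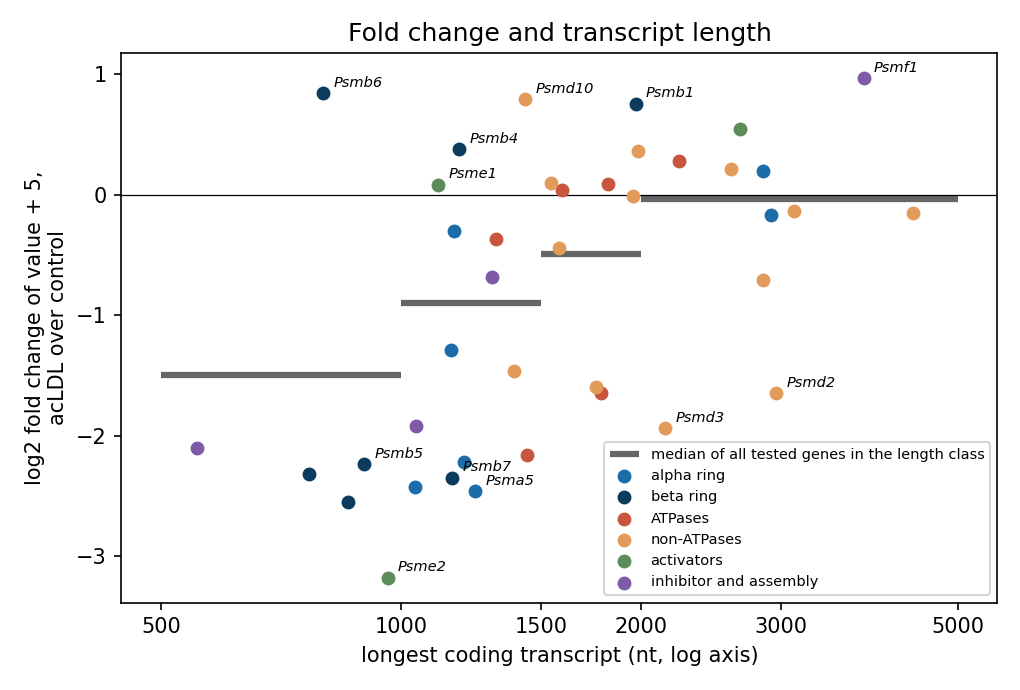
Log2 fold change of value + 5, acLDL over control, against the longest coding transcript in nt (log axis) for the 40 tested proteasome genes coloured by role, with grey bars at the median of all tested genes in each length class. Psmb6 at 798 nt and Psmb5 at 899 nt lie on opposite sides of 0, and Psmd2 and Psmd3, at 2961 and 2148 nt, lie at -1.65 and -1.94.

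Length did not order the members fully. Psmb6 (798 nt), Psmb4 (1183 nt) and Psme1 (1112 nt) had a higher mean with acLDL, next to Psmb5 (899 nt), Psmb7 (1160 nt) and Psme2 (962 nt), which had a lower one. Psmd2 (2961 nt) and Psmd3 (2148 nt) had a lower mean, as had 3524 of all 6784 tested genes of 2000 nt or more. The part of length in these values was not tested. Across the 40 members, Spearman's rho of the log2 fold change was 0.49 with transcript length, against 0.28 over 8988 genes. It was 0.41 with the mean value over the 8 libraries, against 0.17, and -0.18 with the GC content, against -0.13. These are descriptions across genes that share the same libraries, and genes are not independent replicates. Tested members listed at 0 numbered 0, 4, 12 and 2 in acLDL libraries 1 to 4 and 2, 0, 0 and 0 in control libraries 1 to 4. Among the 27 members with a value of at least 10 in all 8 libraries, the median log2 fold change was 0.038, against 0.066 for the 6348 genes of this kind. That filter removes members that are low in one group, so it kept 7 core genes (median 0.20) and 17 cap genes (median -0.13).

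Several members share sequence with copies or other genes elsewhere in the genome, among which the authors' read assignment could split reads. Of the stretches of 31 bases in the transcripts, 74% were shared with another gene for Psmb5 (Gm3375), 66.8% for Psmb3, 66.2% for Psme2 (Psme2b), 64% for Psma5 (Gm8394) and 45.3% for Psmd2 (Gm5422), and the values of these genes are uncertain. Of 19 tested members that share no stretch, 14 had a lower mean and 10 a log2 fold change under -1, against 7 and 5 of the 10 members that share at least 20%. Psmb7 shared 4.07%, Psmb6 15.4% and Psmb1 8.71%.

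The inducible subunits, which replace Psmb5, Psmb6 and Psmb7 in the immunoproteasome, all had a lower mean with acLDL. Psmb8, the counterpart of Psmb5, was at 881, 24.9, 11.99 and 248 with acLDL, against 282, 519.6, 839.7 and 486 in controls. Psmb9, the counterpart of Psmb6, was at 156, 20.9, 16.2 and 58.3 with acLDL, against 32.5, 243, 218 and 195 in controls. Psmb10, the counterpart of Psmb7, was at 398, 136, 15.4 and 148 with acLDL, against 311, 473, 339 and 173 in controls. In each of these genes the groups overlapped through acLDL library 1 or control library 1. Their log2 fold changes were -2.27, -1.55 and -1.43 with limma's adjusted p between 0.303 and 0.325, and with the covariate 0.19, -0.046 and 0.049. Psmb6 and Psmb9 thus stood on opposite sides in acLDL libraries 2 and 3, and Psmb5 and Psmb8 on the same side.

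Genes that work with the proteasome were described from lists. Of 10 tested genes for proteasome-associated proteins, 7 had a higher mean, with a median log2 fold change of 0.28. The lower ones included the cap subunits Adrm1 (-1.60) and Sem1 (-2.22). Pomp, the chaperone that matures the beta ring, was at 739.7, 1804, 1726 and 1411 with acLDL, against 791, 459, 732 and 721 in controls, for a log2 fold change of 1.02 (SE 0.316) with unadjusted p = 0.0107 in limma. It was above every control in acLDL libraries 2, 3 and 4, like Psmb6 and Psmb1. Of 8 genes for ubiquitin and its activating enzymes, 5 had a lower mean (median -1.63). Uba1, which starts ubiquitin transfer, averaged 692 ± 142 after acLDL, against 477 ± 69.2 in control libraries (SD, n = 4 each), a log2 fold change of 0.52 with unadjusted p = 0.0398 in limma. The polyubiquitin gene Ubb was at 1574, 7.42, 0 and 339 with acLDL, against 419.7, 1313, 1765 and 1259.8 in controls (-3.80, unadjusted p = 0.0489).

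Of 11 tested genes that control proteasome transcription, 6 means were higher and 5 lower (median 0.040), with none at an unadjusted p under 0.05. Nfe2l1, the transcription factor known to raise proteasome genes when the protease is inhibited, averaged 466 ± 270.5 after acLDL, against 924 ± 393 in control libraries (SD, n = 4 each), a log2 fold change of -1.07 (SE 0.508) with unadjusted p = 0.0648 in limma. It was -0.73 without acLDL library 1 and -1.73 with the short-transcript index as a covariate (limma's unadjusted p = 0.00858). In that covariate fit 508 of the 10091 genes had an unadjusted p under 0.05, and the lowest adjusted p of any gene was 0.844. Medians were -0.20 over 5 ubiquitin shuttle genes, 0.28 over 12 genes of the VCP segregase that extracts ubiquitinated proteins, and 0.23 over 9 genes of the COP9 signalosome, a complex related to the proteasome lid. The member with the smallest p in each was the shuttle gene Rad23b (0.96, unadjusted p = 0.0238), the VCP cofactor gene Ubxn1 (0.64, 0.0351) and Cops5, which encodes the enzyme of the signalosome (0.89, 0.00894). No gene of these lists passed the adjusted threshold. With the covariate the list medians lay between -0.071 and 0.083.

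Markers of the sorted cells and of granulocytes were mostly lower with acLDL. Of 11 tested markers of the sorted cells, 8 had a lower mean, with a median log2 fold change of -1.86. The 3 with a higher mean were H2-Eb1 (0.61), Csf1r (0.65) and Itgam (0.41). In acLDL libraries 2 and 3, where Itgax was lowest, H2-Eb1 was at 39629 and 44279, against 18386 to 26611 in controls. Csf1r was at 8639 and 9634 there, against 3838 to 5577, and Itgam overlapped the controls. Among the 8 lower markers, H2-Ab1 was at 479 and 41.3 in these libraries, against 1931 to 3733 in controls. Lyz2 was at 14388 and 12898, against 31512 to 57453. Sums over the 12 listed genes ran from 61059 to 88189.6 with acLDL and 68023 to 91687 in controls. Of 7 listed granulocyte markers, 6 had a lower mean (median -2.08), with sums from 479 to 11306 with acLDL and 5388 to 13145 in controls, lowest in acLDL libraries 2 and 3. Ngp, a granule gene, was listed at 0 in acLDL library 3, as was Itgax. The 3 erythroid and megakaryocyte markers in the table all had a lower mean (median -2.61), with sums from 65.01 to 1557 with acLDL and 913 to 2111 in controls. They did not all follow the same libraries, since the globin gene Hbb-bs was at 54.1, 189.7, 65.01 and 79.2 with acLDL, against 1429, 865, 345 and 164 in controls, lowest in acLDL library 1. The lymphocyte markers Cd79a and Ms4a1 summed to 29.4 to 76.8 with acLDL and 16.6 to 31.4 in controls, and the other 5 of that list were not analysed here. The part of other cells in the values of the proteasome genes was not tested. Psmc3ip and Psme3ip1, which the symbol pattern takes in, had log2 fold changes of -0.81 and 0.53 with limma's adjusted p = 0.439 and 0.303.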

How the data were processed

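Libraries were prepared from RNeasy-purified RNA with a Lexogen QuantSeq 3' kit, per the labels' protocols. The text on the design speaks of 5' ends, and the kit's name was followed here. No source used here says whether values were scaled by transcript length. The submitters' processing notes name bcl2fastq 2.20, kallisto without a version, and mm10 (GRCm38). The deposited signal is 1 normalized value per gene and library on the authors' scale. The table is named as raw counts, but fractional values and near-equal library totals show that it is not, so no count model was used. How the values were normalized, and on which annotation, is not given in the sources used here. No value lies between 0 and 5.001, so a value listed at 0 may be a low estimate, and the depth behind single values is unknown.

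Genes that reached 10 in 4 or more of the 8 libraries were tested with limma 3.58.1 in R 4.3.3 on log2(value + 5), with trended and robust moderation, the group as the only term and Benjamini-Hochberg adjustment over all 10091 genes at 0.05. A fold change on this scale understates the change of low genes. Lists were summarised by counts and medians without a test. Members and lists were chosen with earlier results of these data known. Named members are, in each role, the 2 with the largest mean and the 2 with the largest change, those with an unadjusted p under 0.05 or no overlap between groups, the catalytic and exchangeable subunits, and from each other list the gene with the smallest p. Other genes were named after their values were seen, and 1 gene of the lists is not reported here. Transcript length, coordinates and shared stretches of 31 bases came from GENCODE release M21 (GRCm38), which matched 96.6% of symbols, and promoters from RefSeq (GRCm38.p6), read with Python 3.11.15 and pandas 2.3.3. Alternatives were other scalings, filters and pseudocounts, array weights, a replicate block, the short-transcript index as a covariate, and leaving out libraries. Replicate numbers did not pair the samples.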

Additional observations from a re-analysis of the deposited data

Results flagged for a closer look

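Of 58 groups of 4 libraries examined, 8 held a library whose gap to the nearest other library, divided by the group's range, was above Dixon's critical value. Chance flags about 1 in 20 independent groups. These groups share the same 8 libraries, and many of the genes were named for their change, so that rate is no yardstick here. In the acLDL group the library was library 1 each time. It had 225 for Psma5, against 0 to 14.7 in the other acLDL libraries, 1835 for Psma7, against 346 to 577, and 353 for Psmb7, against 0 to 32.2. It also had 302 for Psmc2, against 23.0 to 40.0, 194 for Psmd2, against 19.96 to 40.6, and 13.7 for Psmg1, which was listed at 0 in the other acLDL libraries. In the control group it was library 1, with 6484 for Psmb1, against 4628 to 4936 in the other controls, and 2056 for Psme1, against 988.5 to 1159.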

How the results depend on the processing

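Of 280 values of the 29 named members under 10 alternatives, 256 kept their direction and side of the threshold, 14 kept the direction and passed it, and 10 changed sign. The cause of the changes was not tested. Array weights called 1957 genes and 15 proteasome genes, in place of 0, and quantile normalization called 1 gene. With the short-transcript index as a covariate the median log2 fold change was 0.16 for the core, 0.11 for the inhibitor and assembly factors, -0.013 for proteasome-associated proteins, 0.073 for ubiquitin shuttles, 0.083 for ubiquitin and E1 genes, 0.054 for VCP and -0.050 for the COP9 signalosome. The core minus the cap was 0.21, and 4 core genes and 2 activators had a lower mean. In the same fit the log2 fold change turned to 0.17 for Psma2, 0.53 for Psma5, 0.23 for Psma6, 0.15 for Psmb5, 0.39 for Psmb7, 0.19 for Psmb8, 0.049 for Psmb10 and -0.19 for Psme1. Without acLDL libraries 2 and 3 the medians were -0.19 for the core, -0.49 for the inhibitor and assembly factors, 0.038 for proteasome-associated proteins, 0.044 for shuttles and 0.075 for the COP9 signalosome, the core minus the cap was -0.13, 2 activators were lower and Psme1 turned to -0.095. Among genes of at least 10 in all 8 libraries, where genes low in one group drop out, the medians were 0.20 for the core, 0.97 for the inhibitor and assembly factors (1 gene), 0.20 for ubiquitin and E1 genes and 0.072 for shuttles, the core minus the cap was 0.33, and 3 core genes, 0 activators and 0 inhibitor or assembly genes were lower. With transcripts of 1000 to 2000 nt alone, 6 core genes, 7 cap genes and 0 activators were lower. Moving the chaperones Psmd5, Psmd9 and Psmd10 to the assembly factors gave medians of -0.41 for the cap and -0.15 for the assembly factors. A pseudocount of 20 gave -0.60 for the inhibitor and assembly factors. The shuttle median was -0.058 with array weights, where Psmc3 turned to -0.14, and 0.010 after quantile normalization, which moved the median of all genes to 0.15. Without the filter, 2 activators were lower.

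Leaving out 1 library at a time, the calls ran from 0 to 2190 genes and from 0 to 20 proteasome genes, and calls came only without acLDL library 1. Medians ran from -2.48 to -1.06 for the core, -0.34 to -0.077 for the cap, -0.043 to 0.33 for the activators and -1.74 to -0.79 for the inhibitor and assembly factors, and the core minus the cap from -2.13 to -0.89. Lower means numbered 9 to 10 in the core, 11 to 14 in the cap, 1 to 2 among activators and 3 to 3 among inhibitor and assembly genes. List medians ran from 0.17 to 0.44 for proteasome-associated proteins, -0.21 to -0.081 for shuttles, -0.090 to 0.12 for transcriptional control, -2.42 to -0.67 for ubiquitin and E1 genes, 0.19 to 0.36 for VCP and 0.13 to 0.31 for the COP9 signalosome. Without acLDL library 3, Psmb8 was at -1.40 and Psmb10 at -0.59, and without control library 1 Psma5 was at -3.90. Psma2 ran from -0.32 to 0.073, Psmc3 from -0.077 to 0.29 and Psme1 from -0.043 to 0.33. The replicate block changed no call, with 0 genes called and 730 at an unadjusted p under 0.05, and same-numbered libraries did not deviate together (r across genes of -0.55, -0.21, -0.28 and 0.034), so the numbers were not taken as pairs. Values near 0 limit what can be said of Psmg1, Psmg2 and the members that were not tested.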
